A study of Mus musculus with 2 samples.

Results

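The microRNAs described here are encoded in the proximal part of the imprinted Dlk1-Dio3 domain on mouse chromosome 12, from Meg3 to the gene Rtl1, ahead of the larger cluster that begins with Mir379. They were chosen by symbol (Mir770, Mir673, Mir493, Mir337, Mir540, Mir665, Mir431, Mir433, Mir127 and Mir434), and all 10 had a row among the 1973 gene rows of the tables. The data are microRNA-seq libraries of RNA under 30 nt from the midbrain, dissected from mouse embryos of strain B6NCrl on embryonic day 13.5 and pooled over both sexes. There is 1 group of 2 biological replicates, with 1 library each and no other age, tissue or treatment. The 2 samples share a donor record, and nothing in the labels says how far the embryos were independent, so the spread between them may be partly technical.

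In Dlk1-Dio3, the protein-coding genes Dlk1, Rtl1 and Dio3 are expressed from the paternal chromosome, and the long noncoding RNAs Meg3, Rian and Mirg with their microRNAs from the maternal one. Rtl1 is a retrotransposon-derived gene with a known role in the placenta and in muscle. Maternal transcription runs across it in the opposite direction, and the hairpins cut from that antisense RNA yield microRNAs whose letters are an exact complement of Rtl1 messenger RNA, which they are known to cleave. A microRNA otherwise finds its targets mainly through its seed, bases 2 to 8 from the 5′ end.

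The hairpins fell into 3 groups by position on mm10, and all 10 lay on the plus strand. Mir770 (ENSMUSG00000076451.1, chr12:109563692-109563785) lay within the long noncoding gene Meg3. Of the 4 annotated Meg3 transcripts that span it, 3 had it in an intron and 1 in an exon. Between the end of Meg3 and the end of Rtl1 stood Mir673 (ENSMUSG00000076316.1, chr12:109571990-109572080), Mir493 (ENSMUSG00000077025.2, chr12:109580233-109580315), Mir337 (ENSMUSG00000065526.3, chr12:109585789-109585885), Mir540 (ENSMUSG00000072900.1, chr12:109586080-109586146) and Mir665 (ENSMUSG00000076313.1, chr12:109586314-109586407). The last group, Mir431 (ENSMUSG00000070080.1, chr12:109590447-109590537), Mir433 (ENSMUSG00000070072.1, chr12:109591715-109591838), Mir127 (ENSMUSG00000070076.1, chr12:109592846-109592915) and Mir434 (ENSMUSG00000070133.1, chr12:109594506-109594599), lay antisense to Rtl1, each wholly inside its coding exon and its coding sequence. The coordinates are those of GENCODE M21. The rows of 7 loci carried the same version of the gene ID there. Mir337, Mir540 and Mir127 carried an earlier version, so the interval counted for these 3 may differ from the one given.

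The mature sequences of the Rtl1-antisense group are shown because this group held most of the counts and because of its complement in Rtl1. They are from RefSeq (GRCm38.p6), which had the hairpin and 2 mature arms for each of the 10 loci, 20 arms in all. Sequences are written 5′ to 3′ with the seed in capitals.
miR-127-5p: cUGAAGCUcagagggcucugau
miR-127-3p: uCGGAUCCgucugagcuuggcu
miR-431-5p: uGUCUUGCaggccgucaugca
miR-431-3p: cAGGUCGUcuugcagggcuucu
miR-433-5p: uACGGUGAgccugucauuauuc
miR-433-3p: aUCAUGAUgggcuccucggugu
miR-434-5p: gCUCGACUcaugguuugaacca
miR-434-3p: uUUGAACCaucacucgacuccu
The full reverse complement of all 8 arms was found once each in the annotated Rtl1 transcript of 6358 nt, inside its coding sequence of 5232 nt. Of 1738 mouse mature sequences searched, 11 had such a full complement in Rtl1. The others were both arms of miR-136 and miR-432, which come from the same stretch. The Rtl1 sites of 1 arm per hairpin are given in the direction of the Rtl1 messenger RNA, with the bases that face the seed in capitals. The miR-434-3p site began at base 818 of the coding sequence, the miR-127-3p site at base 2495, the miR-433-3p site at base 3602 and the miR-431-5p site at base 4925.
Rtl1 facing miR-434-3p: aggagtcgagtgatGGTTCAAa
Rtl1 facing miR-127-3p: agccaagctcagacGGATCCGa
Rtl1 facing miR-433-3p: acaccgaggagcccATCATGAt
Rtl1 facing miR-431-5p: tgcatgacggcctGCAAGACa
A full complement follows from the antisense position of the hairpins and is no measurement of Rtl1, whose RNA was not measured here.

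Despite their shared locus, the 10 hairpins do not form a seed family. The 20 arms had 20 distinct seeds, and 18 of these seeds occurred in no other mouse mature microRNA of the RefSeq table. The exceptions are shown with their partners, both encoded on other chromosomes.
miR-673-5p: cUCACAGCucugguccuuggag
miR-6985-3p: cUCACAGCcaccuccucacag
miR-540-3p: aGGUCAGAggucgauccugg
miR-6915-5p: aGGUCAGAgcagauggagguucgu
Mir6985 had 0 CPM in replicate 1 and 1.70 CPM in replicate 2 (CPM, the same-strand count divided by the library's total and scaled to 1e+06), against 108 and 103 CPM for Mir673, so nearly all counts at the 2 loci with this seed were from Mir673. Mir6915 had no row, so no such comparison could be made for the seed of miR-540-3p. In 2 hairpins, the longest run of letters common to both arms was longer than the 3 to 6 nt of the other 8. Both arms of miR-431 held GUCUUGCAGG, from base 2 in the 5p arm and from base 7 in the 3p arm, so that it covers the whole seed of the 5p arm and bases 7 and 8 of the 3p arm. Both arms of miR-434 held UUUGAACCA, from base 14 in the 5p arm and from base 1 in the 3p arm. The deposited counts are per hairpin, so none of the values below says which arm was present.

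Copies of these loci among annotated hairpins were sought by exact runs only, so a near-identical copy with mismatches could be missed. None of the 10 hairpins shared an exact run of 20 nt with another RefSeq hairpin on the same strand, which 13.1% of the 869 loci with a RefSeq hairpin did. Multimapping reads, 34.4% of the total in replicate 1 and 37.7% in replicate 2, were left out of the rows. The rows summed to 5093743 same-strand counts in replicate 1 and to 2935841 in replicate 2. A count of 0 allows up to 0.589 CPM in replicate 1 and 1.02 CPM in replicate 2, taking 3 counts as the limit. These limits and the binomial intervals given below cover counting error only, since the tables carry no molecular identifiers. The libraries are of RNA under 30 nt, and the annotated arms are 19 to 26 nt long. Levels are therefore compared per hairpin without division by length. The lengths of the counted reads were not available. How well each sequence was ligated and amplified was not measured, and it can shift levels between sequences.

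Together the 10 loci held 1.65% ± 0.143 of all same-strand counts (SD, n = 2), with 1.75% in replicate 1 and 1.55% in replicate 2. The exact binomial 95% limits (Clopper-Pearson) were 1.74 and 1.76% in replicate 1 and 1.54 and 1.56% in replicate 2. The Rtl1-antisense hairpins made up 83.1% and 83.2% of that sum in replicates 1 and 2. The 5 hairpins between Meg3 and Rtl1 made up 13.8% and 14.3%, and Mir770 in Meg3 made up 3.08% and 2.55%. The Rtl1-antisense sum was 14551 CPM in replicate 1 and 12890 CPM in replicate 2, against 2424 CPM and 2210 CPM for the group between the genes. The division among the 3 groups was thus close to the same in both libraries. In all, 9 of the 10 loci were at 100 CPM or more in both replicates, where 10.2% of all 1973 rows were, and 5 were at 1000 CPM or more, where 4.46% of all rows were. Of all rows, 1254 had no count in either library.

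**Figure D1:**
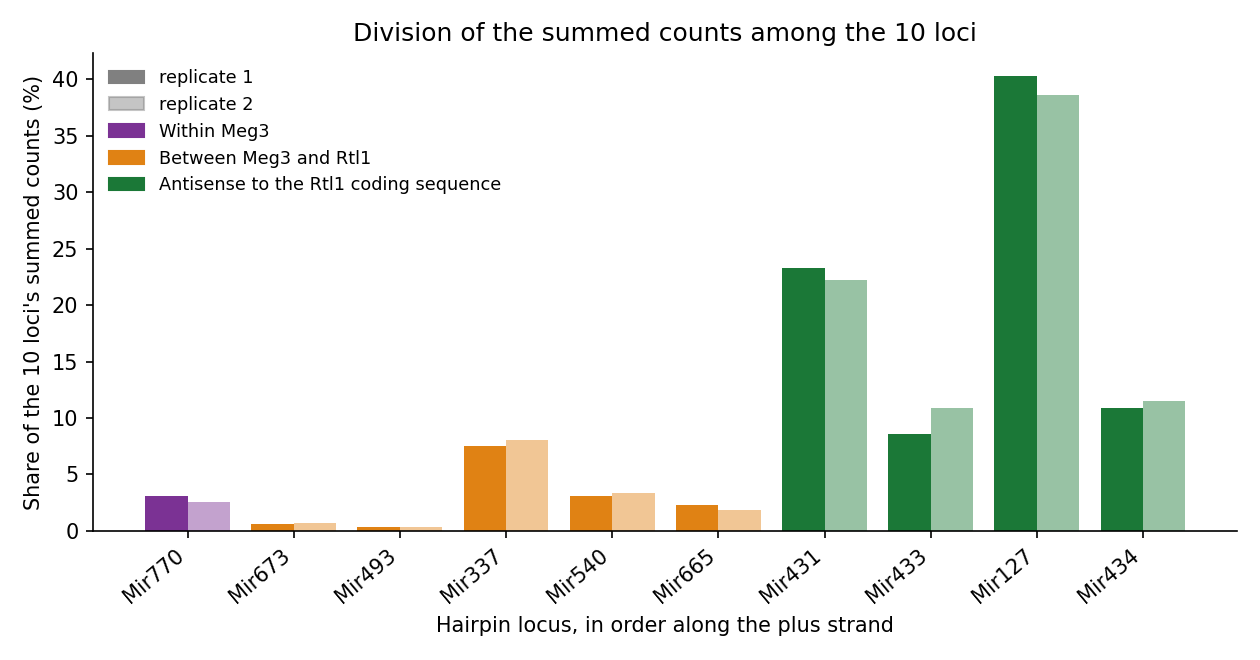
Share of the summed same-strand counts of the 10 loci (y axis, percent) taken by each hairpin (x axis, in order along the plus strand), with replicate 1 in full colour and replicate 2 in pale colour. Mir127 took 40.3% in replicate 1 and 38.6% in replicate 2, Mir431 took 23.3% and 22.2%, and each of the 6 hairpins outside Rtl1 took 8.05% or less.

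Among the Rtl1-antisense hairpins, Mir127, whose deletion in mice is known to alter the placenta, was the highest. It had 7059 CPM in replicate 1 and 5980 CPM in replicate 2, a mean of 6519 ± 763 CPM (SD, n = 2), and stood in place 30 and 33 of all rows. Mir431, whose microRNA is known from neurons and from muscle stem cells in mouse, had 4082 CPM and 3446 CPM, a mean of 3764 ± 450 CPM. Its values lay wholly below those of Mir127 and above those of every other locus of the 10.

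Mir434 had 1900 CPM in replicate 1 and 1780 CPM in replicate 2, a mean of 1840 ± 85.1 CPM. Mir433 had 1510 CPM and 1684 CPM, a mean of 1597 ± 123 CPM, and was the single one of the 10 with the higher CPM in replicate 2. All 4 Rtl1-antisense hairpins of the 10 exceeded 1000 CPM in both libraries. Mir432, which also lies antisense to Rtl1 but is not among the 10, had no count in either.

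Of the group between Meg3 and Rtl1, Mir337 was the highest, with 1324 CPM in replicate 1 and 1247 CPM in replicate 2, a mean of 1286 ± 54.2 CPM. Mir540 had 540 CPM and 521 CPM, a mean of 530 ± 13.5 CPM. Mir665 had 397 CPM and 289 CPM, a mean of 343 ± 75.9 CPM, with the widest relative spread of the 10. These 3 hairpins stand closest together of the 10, with gaps of 194 and 167 nt.

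Mir673 and Mir493 stand alone between that trio and Meg3, and were the lowest. Mir673 had 108 CPM in replicate 1 and 103 CPM in replicate 2, a mean of 105 ± 3.61 CPM. Mir493 had 55.6 CPM and 49.4 CPM, from 283 and 145 counts, a mean of 52.5 ± 4.36 CPM. An SD of 2 values can fall below counting error, and the exact interval of Mir673 ran from 99.1 to 117 CPM in replicate 1 and from 91.6 to 115 CPM in replicate 2. Mir770, inside Meg3, had 539 CPM and 395 CPM, a mean of 467 ± 102 CPM.

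**Figure D2:**
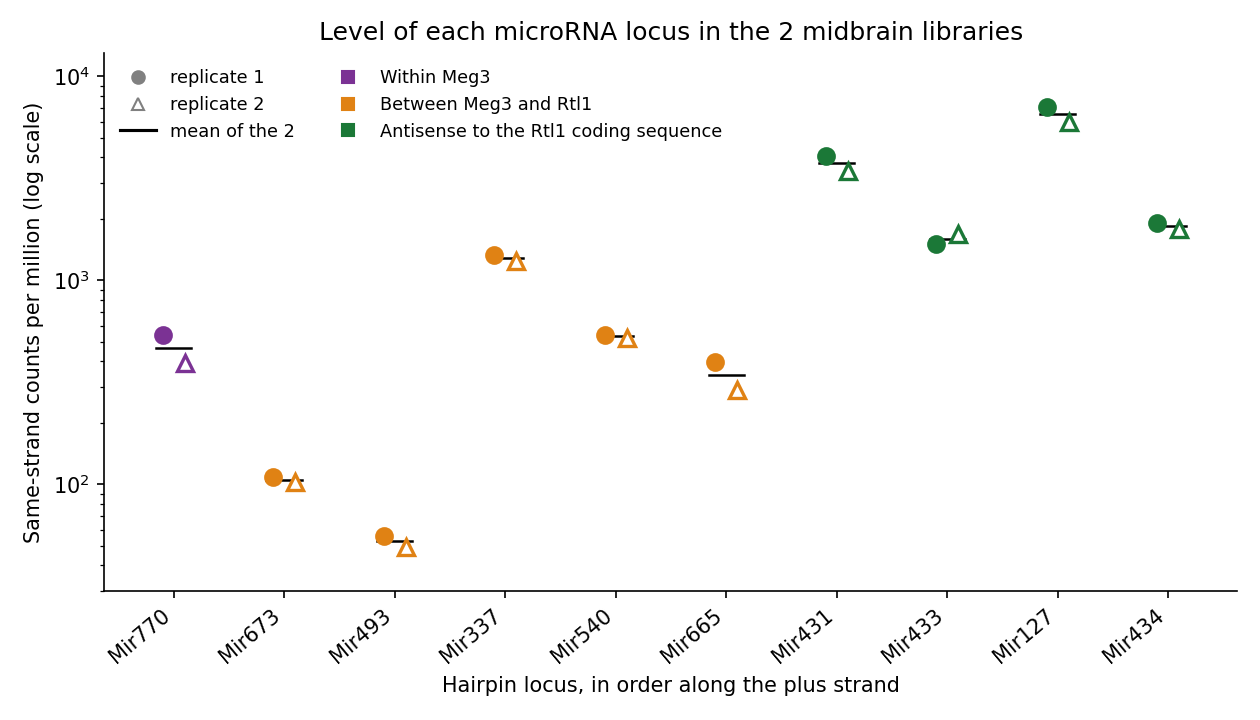
Level of each hairpin in CPM of same-strand counts (y axis, log scale) in order along the plus strand (x axis), with replicate 1 as filled circles, replicate 2 as open triangles and the mean of the 2 as a line. The 4 Rtl1-antisense hairpins of the 10 lie between 1510 and 7059 CPM, and the other 6 lie between 49.4 and 1324 CPM. These ranges do not overlap. Mir432, also antisense to Rtl1 but not among the 10, had no count in either library.

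The order of levels was Mir127, Mir431, Mir434, Mir433, Mir337, Mir540, Mir770, Mir665, Mir673 and Mir493, and each of the 9 neighbouring pairs stood in the same order in both libraries. For 7 of these pairs the values of the 2 loci did not overlap across the libraries. Mir540 and Mir770 were not resolved, with 540 CPM for Mir540 and 539 CPM for Mir770 in replicate 1. Mir770 and Mir665 overlapped across the libraries, with 397 CPM for Mir665 in replicate 1 and 395 CPM for Mir770 in replicate 2, but within each library Mir770 was the higher, by 1.36-fold in replicate 1 and 1.37-fold in replicate 2. The order was not tested, since an exact test over 2 paired values can give no p below 0.5. From the highest to the lowest, Mir127 exceeded Mir493 by 127-fold in replicate 1 and by 121-fold in replicate 2.

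Adjacent hairpins could differ widely in level. Mir540 begins 194 nt after Mir337 ends, and Mir337 was 2.45-fold higher than Mir540 in replicate 1 and 2.40-fold higher in replicate 2. Mir665 follows 167 nt later, and Mir540 was 1.36-fold and 1.80-fold higher than it. Mir337 in turn was 23.8-fold and 25.3-fold higher than Mir493, 5473 nt upstream. Within Rtl1, Mir127 was 4.68-fold and 3.55-fold higher than Mir433 on one side, 1007 nt away, and 3.71-fold and 3.36-fold higher than Mir434 on the other, 1590 nt away. Each of these steps had the same direction in both libraries, and their sizes differed most at Mir540 over Mir665 and at Mir127 over Mir433.

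The predicted folds of the hairpins also differed. By RNAfold, Mir770, at 94 nt and 70.2% GC, had the most negative folding energy, -58.2 kcal/mol. Mir127, at 70 nt and 57.1% GC, had the least negative, -35.1 kcal/mol. Per nucleotide, the range ran from -0.62 kcal/mol for Mir770 to -0.36 kcal/mol for Mir433. Mir127, one of the shortest, stood at -0.50 kcal/mol per nucleotide, with 5 of the 10 less negative and 4 more negative. These are descriptions of 10 annotated hairpins, whose length differs by annotation.

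All counts of 9 of the 10 loci were on the strand of the hairpin. Mir337 had 35 of 6779 counts on the opposite strand in replicate 1, or 0.516% (exact binomial 95% limits 0.360 and 0.717), and 11 of 3673 in replicate 2, or 0.299% (0.150 to 0.535). Among 466 loci with at least 10 same-strand counts over both libraries, 8.15% had any opposite-strand count. At Mir337, the annotation has a second hairpin, Mir3544 (chr12:109585813-109585873), on the minus strand, which has no row in the tables. Its arms are shown beside those of miR-337, with the seeds in capitals.
miR-337-5p: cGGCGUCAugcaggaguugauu
miR-337-3p: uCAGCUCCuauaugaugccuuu
miR-3544-5p: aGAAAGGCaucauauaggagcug
miR-3544-3p: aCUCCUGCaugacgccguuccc
Which letters the opposite-strand reads held cannot be read from the tables. For Mir127, 0 of 35955 and 0 of 17556 counts allow an opposite-strand share of up to 0.00834% in replicate 1 and 0.0171% in replicate 2.

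Between the libraries, the 10 loci differed by less than 1.5-fold each. So did most loci tested, since 89 of all 466 differed by 1.5-fold or more. A two-sided exact conditional binomial test of the counts, given TMM-scaled library sizes and adjusted over all 466 loci tested, called 5 of the 10, where it called 38.0% of all loci tested. Higher in replicate 1 were 4 of the 10, where 18.7% of all loci tested were, and higher in replicate 2 was 1, where 19.3% were. The test compares these 2 libraries, and biological variation has no place in it. A call therefore says that a difference exceeded counting error, and the share called among the 10 is to be read beside that among all loci tested.

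The calls higher in replicate 1 were Mir665 (log2 ratio of replicate 1 to replicate 2 0.39, adjusted p = 1.52e-10 by the exact test), Mir770 (0.38, adjusted p = 1.14e-13), Mir431 (0.18, adjusted p = 1.32e-23) and Mir127 (0.17, adjusted p = 5.36e-38). The small p-values of Mir431 and Mir127 go with their high counts, at ratios of 1.13-fold each. Mir433 was higher in replicate 2 (-0.22, adjusted p = 1.71e-16 by the exact test). For Mir434, Mir337, Mir673, Mir540 and Mir493 the log2 ratios were 0.03, 0.02, 0.0031, -0.01 and 0.10, and none of them passed. The 10 loci's median log2 ratio was 0.06, against -0.0041 over all loci tested, and the SD of the log2 ratio was 0.31 over the 205 loci with mean levels from 100 CPM upwards.

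**Figure D3:**
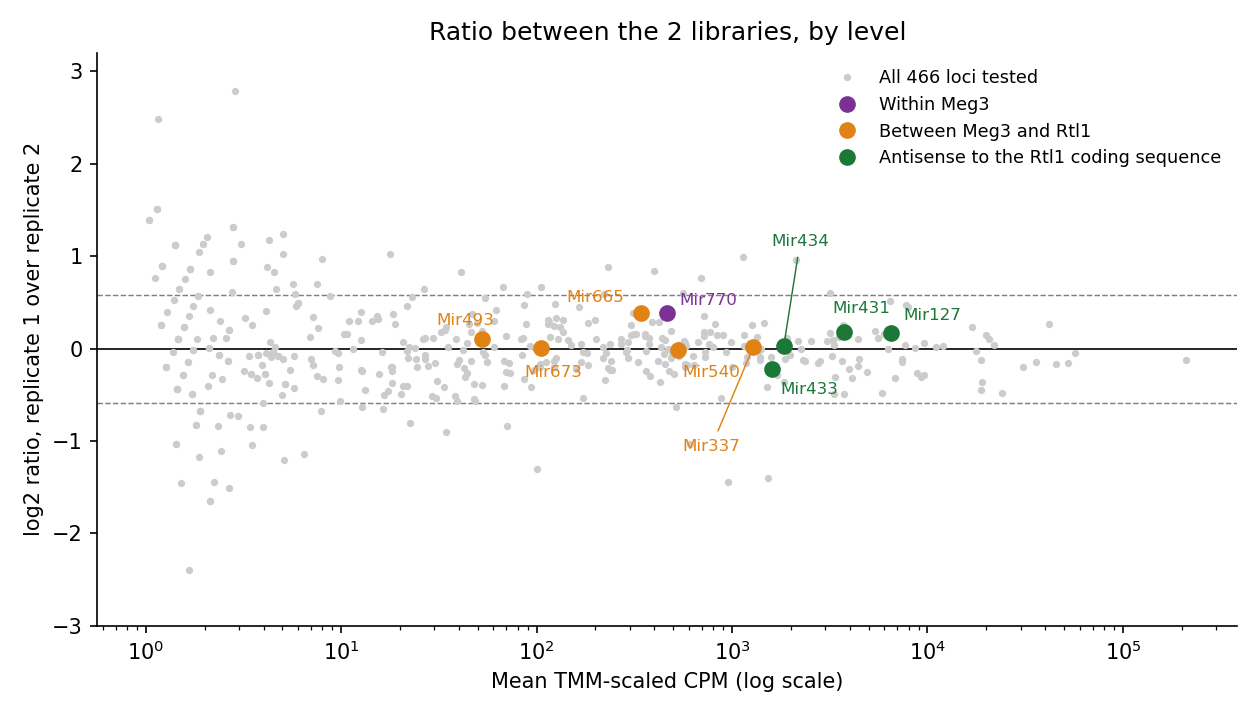
Log2 ratio of replicate 1 to replicate 2 (y axis) against the mean TMM-scaled CPM (x axis, log scale) for the 466 loci tested (grey) and the 10 loci, coloured by position. Dashed lines mark a 1.5-fold difference, and all 10 loci lie between them, from -0.22 for Mir433 to 0.39 for Mir665. Of all 466 loci tested, 89 lie at or beyond these lines.

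Some markers of other cell types moved between the same libraries, and others were not called by the exact test. The endothelial Mir126a had 16256 CPM in replicate 1 and 21170 CPM in replicate 2. Both mural loci, Mir143 and Mir145a, summed to 5051 CPM and 6702 CPM, the choroid plexus loci Mir204 and Mir449a to 1594 CPM and 3184 CPM, and the liver Mir122 stood at 58.9 CPM and 139 CPM. Loci of the Hox clusters, which mark hindbrain and spinal cord, summed to 619 CPM and 710 CPM. Of the erythroid loci, Mir451a had 53.8 CPM and 39.5 CPM and was called (adjusted p = 0.0454 by the exact test). Mir144 had 27.9 CPM and 34.1 CPM and was not called (adjusted p = 0.133 by the exact test). The leukocyte Mir223 stood at 144 CPM and 200 CPM. Of the muscle markers, Mir206 had 14.7 CPM and 10.6 CPM and was not called. Mir1a-1 and Mir133a-1 were at 0 in both libraries. The neural markers Mir9 and Mir124a had counts at all 5 loci with a row and summed to 416 CPM and 369 CPM, of which Mir9-3 gave 401 CPM and 353 CPM. Both mature sequences of Mir9-3 are identical at Mir9-1 and Mir9-2, and Mir124a, Mir1a and Mir133a are also known to have several genomic copies. Reads that fit several copies are not in the rows, so these sums and zeros are no measure of the mature microRNA's level. Their part in the ratios above was not tested. In bulk tissue, fewer cells of a type and less RNA per cell cannot be told apart.

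The other microRNAs of the domain give the setting for these values. Of the 43 listed microRNAs of Rian and Mirg, further along the chromosome, 37 had a row, 36 of them on the plus strand. The exception, Mir299b on the minus strand, had 4332 and 2390 of its counts in the opposite-strand column, which the levels do not use. The 37 rows had a median of 238 CPM, against 908 CPM for the 10 loci and 0 CPM for all rows. At 100 CPM or more in both libraries were 9 of the 10 loci and 24 of the 37. The 5 further rows of the Meg3 to Rtl1 stretch, which are not among the 10, had a median of 0 CPM. Of these, 1 was at 100 CPM or more in both libraries. The 10 were chosen with earlier results known, so both comparisons depend on which loci were listed. Reads that fit several copies of a hairpin are not in the rows, and copies of these other loci were not examined one by one. The 10 loci held 20.8% of the domain's listed counts in replicate 1 and 20.5% in replicate 2. The highest of the Rian and Mirg loci were Mir487b, Mir369 and Mir382, with means of 21992 ± 1093, 8590 ± 297 and 6584 ± 664 CPM. In the libraries' ratio, 20 of 35 tested Rian and Mirg loci were called, 19 of them higher in replicate 1, with a median log2 ratio of 0.14. Of all loci tested, 38.0% were called and 18.7% were higher in replicate 1.

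**Figure D4:**
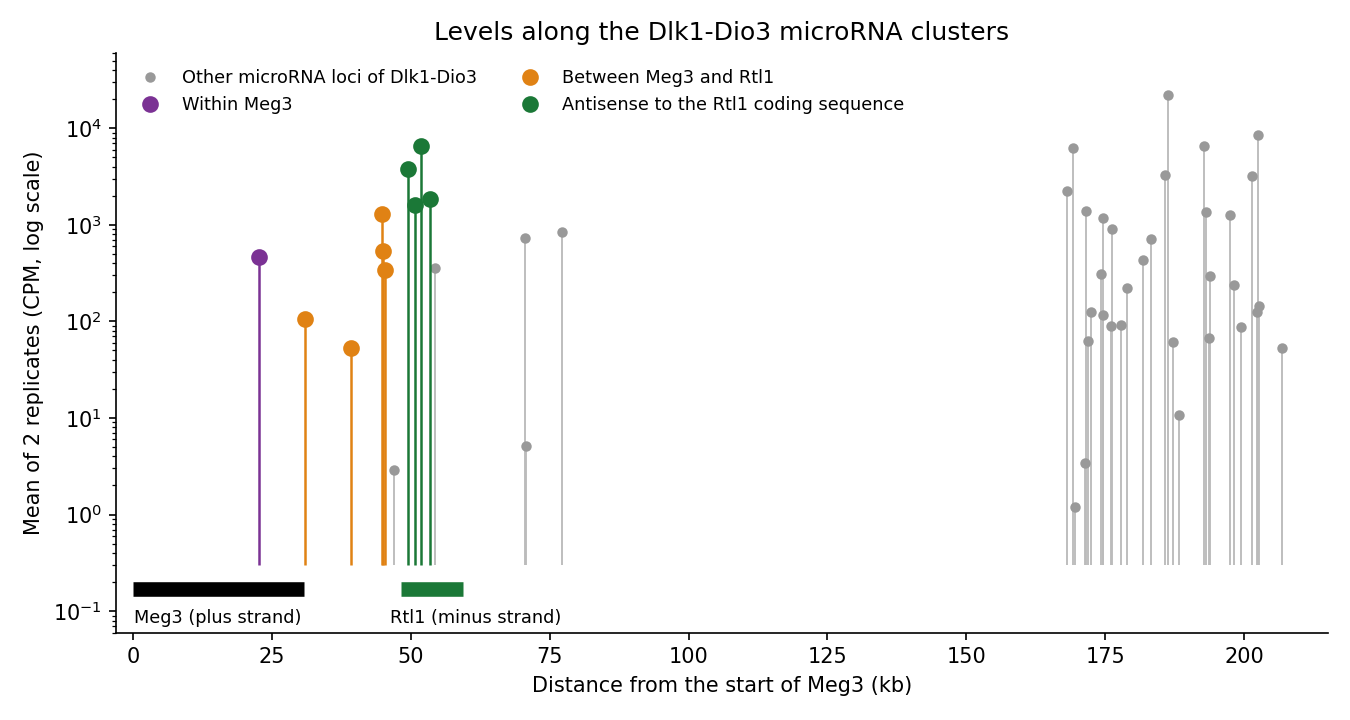
Mean CPM of the 2 replicates (y axis, log scale) against the distance from the start of Meg3 in kb (x axis), for the 10 loci (coloured by position) and the other listed Dlk1-Dio3 loci with a count (grey), above bars for the bodies of Meg3 and Rtl1. Mir127 reaches 6519 CPM over Rtl1, and Mir487b in the distal cluster reaches 21992 CPM.

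Some annotated hairpins of the Meg3 to Rtl1 stretch had few counts or none. Of the 5 further loci with a row there, Mir1906-1, Mir3070b and Mir432 had no count in either library. Mir432 lies antisense to Rtl1, so not every annotated hairpin in that position had a high level in the rows. Mir3070a had 28 counts in replicate 1 and 1 count in replicate 2. Whether any of these 5 loci has a copy elsewhere was not examined, and reads that fit several copies are not in the rows. Few counts or none here therefore need not mean that the mature microRNA was absent. The row now named Mir3071 had 384 CPM and 333 CPM, a mean of 358 ± 36.2 CPM. Its row carries an earlier version of the gene ID, and Mir136, which has no row of its own, lies on the opposite strand at the same place, so the counts cannot be assigned to one of them.

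The 3 loci outside the 10 whose levels over the 2 libraries were nearest to those of Mir127 were Mir382 (distance 0.03 in log2(CPM + 0.5)), Mir30d (0.05) and Mir411 (0.15). Mir382 and Mir411 are themselves Dlk1-Dio3 loci. A likeness over 2 libraries of 1 tissue says little beyond a like level.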

How the data were processed

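The authors deposited raw counts of reads per gene, 1 table per library, on assembly mm10 with annotation M4, per the notes deposited with the files. For the aligner, trimming and counting rules: not given in the sources used here. Of the 3 count columns, the first was the sum of the other 2 in all 1973 rows of each table, and the columns were read as both strands, same strand and opposite strand. This is an inference. The 4 summary rows stayed out of library sizes (same-strand column: unmapped 16.1% and 15.7%, unassigned 3.79% and 3.80%, ambiguous 0).

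Symbols came from GENCODE M21 by gene ID without version (1894 of 1973 matched). CPM is over all gene rows. The exact conditional binomial test was run on loci reaching 10 counts over both libraries (scipy 1.17.1), with TMM factors from edgeR 4.0.16 and Benjamini-Hochberg adjustment at 0.05. Ratios use a pseudocount of 0.5 CPM. With 1 group, edgeR can fit no contrast. On simulated counts the test called few unchanged loci and missed some of the changed ones, and it called many unchanged loci once spread between samples was added. Folding used RNAfold 2.7.2. Alternatives included DESeq2 1.42.0 size factors. Named loci are all members, the 3 highest Rian and Mirg loci, the 5 further loci of the Meg3 to Rtl1 stretch with a row and the 3 nearest to the highest member. Seed partners, cell type markers, Mir299b, Mir3544 and Mir136 are named besides. The members and lists were chosen with earlier results of these data known.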

Additional observations from a re-analysis of the deposited data

Results flagged for a closer look

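Counts on the strand opposite to Mir337, in a column that the levels do not use, exceeded the limit of 3 counts in both libraries, with 35 counts in replicate 1 and 11 counts in replicate 2. The other 9 loci had none.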

How the results depend on the processing

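The summed share of 1.65% was 0.912% with multimapping reads in the denominator and 2.09% without the most abundant locus. It was 1.61% with unstranded counts and ranged from 1.55 to 1.75% with 1 replicate left out. The number of loci at 100 CPM or more was 9 with unstranded counts, TMM-scaled library sizes, DESeq2 size factors and either replicate left out. Multimapping reads in the denominator were not tried for this number. Mir673 was near the limit, with 108 CPM in replicate 1 and 103 CPM in replicate 2. The number of calls between the libraries stayed at 5 with DESeq2 size factors, both other count minimums, unstranded counts and thinning of replicate 1. The share called over all loci tested was 38.0%, but 24.9% without a filter and 49.0% with at least 30 counts, where 5 of 10 is close to that share. The calls were 7 with total counts only, where Mir337 (log2 ratio 0.09) and Mir434 (0.09) joined and 38.8% of all loci tested were called. They were 0 when a 1.5-fold ratio was required, where 34 of all 466 loci tested were called. That requirement was added once the values were known, after seeing the data. The log2 ratios near 0 changed sign for 2 uncalled loci. Mir673 was at -0.000196 with unstranded counts and -0.13 with thinning, and Mir540 was at 0.0518 with total counts only, 0.0175 without a filter and 0.0111 with thinning. Total counts only moved the median log2 ratio of all loci tested from -0.0041 to 0.06, and that of the 10 loci to 0.13. The opposite-strand share at Mir337 ranged from 0.299 to 0.516% over single libraries. No paired analysis was possible because there is 1 group. Depth limits Mir493 most, with 145 counts in replicate 2.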
